A study of Mus musculus with 4 samples.

Results

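The HIF factors and prolyl hydroxylases are a set of 9 genes among the 32285 features of the count files, chosen by name for their roles in oxygen sensing: the factor subunits Hif1a, Epas1 and Hif3a, their partner Arnt, the prolyl hydroxylases Egln1, Egln2 and Egln3, the ubiquitin ligase subunit Vhl and the asparaginyl hydroxylase Hif1an. All 9 were present in the files. The alpha subunits of hypoxia-inducible factors are made and destroyed continuously while oxygen is plentiful, because the EGLN enzymes hydroxylate prolines that VHL then recognises, and HIF1AN hydroxylates an asparagine that keeps coactivators away. When oxygen is scarce, hydroxylation slows, the alpha subunit pairs with ARNT, and genes for glucose uptake, glycolysis, pH control and the hydroxylases Egln1 and Egln3 themselves are switched on. Embryonic cartilage has no blood vessels, and Hif1a is known there for the survival of chondrocytes in the inner part of the growth plate.

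The study prepared single-cell RNA libraries from mouse embryonic hindlimbs, in which the future knee region was cut out and digested with collagenase. There were 4 libraries, 1 for each group, and the number of embryos pooled in a library was not stated. The genotype of both controls was no cre, with 1 library from E13.5 and 1 from E14.5 embryos. Of the mutant-labelled libraries, both E14.5, the genotypes were Prx1cre;Glut1f/f;Glut3f/+ and Prx1cre;Glut1f/f;Glut3f/f, the latter called DCKO by the study. Prx1cre is active in limb mesenchyme, so cartilage, interzone, tendon and connective tissue cells fall in its domain while endothelial, blood and muscle cells do not, and Glut1 and Glut3 are the glucose transporters Slc2a1 and Slc2a3. The mutant-labelled libraries are named here by their Glut3 label. The files held 12769 barcodes with 100344565 UMIs in the E13.5 control, 9707 with 84188147 in the E14.5 control, 11690 with 97110697 in the library labelled Glut3f/+ and 11602 with 91574038 in the library labelled Glut3f/f. After limits on detected genes and mitochondrial UMIs, 12446, 9305, 11264 and 11305 cells were kept in that order, with medians of 6176.5, 7279, 6757 and 6379 UMIs per cell.

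The libraries differed in sex as well as in genotype. Xist gave a UMI in 64.7% of kept cells in the E13.5 control, 0.172% in the E14.5 control, 92.2% in the library labelled Glut3f/+ and 91.2% in the library labelled Glut3f/f. Y-linked genes gave one in 18.4%, 65.9%, 0.0355% and 0.0265% of cells in the same order. The E14.5 control was therefore male and both mutant-labelled libraries female, so sex and genotype cannot be told apart between libraries, and with 1 library per group no result can be given without the library it rests on. The E13.5 control was of mixed sex, so age and sex make-up cannot be told apart between the controls either. Pairs of libraries shared between 24 and 37 cell barcodes. Slc2a1, which both mutant labels give as floxed on both alleles, went against the labels: its level over all skeletal cells was 56.7 UMIs per 1000000 (CPM) in the E13.5 control, 68.4 in the E14.5 control, 365 in the library labelled Glut3f/+ and 433 in the library labelled Glut3f/f. Slc2a3 was low in all 4, at 5.59, 3.48, 4.12 and 2.45 CPM. The reads are tags from the 3′ ends of transcripts, and a tag outside the deleted part of a gene checks nothing about the deletion. The deleted exons are not given in the sources used here, so the genotypes were not checked by these counts and each library is named by its label only.

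Kept cells were placed in 13 classes by known marker genes, none of them a member of the set, cells that met no limit were counted apart, and 6 of the classes together are called skeletal cells. The labels describe the samples as interzone, but cells with interzone markers, including Gdf5, numbered 2195, 1129, 1230 and 565 in the order E13.5 control, E14.5 control, labelled Glut3f/+ and labelled Glut3f/f, the order used for all lists of 4 values. Chondrocyte-like cells, defined by at least 0.5% of UMIs from 9 cartilage genes, numbered 1620, 4764, 4884 and 6482, and fibroblast-like cells 2722, 1648, 2517 and 1827. Prehypertrophic chondrocytes numbered 788, 335, 550 and 694, and endothelial cells 59, 30, 63 and 75. Cells outside all classes made up 30.0%, 7.75%, 10.1% and 10.8% of kept cells, and their median depths of 5262.5, 3746, 4026.5 and 3543.5 UMIs were below those of the chondrocyte-like cells, at 6413, 7831, 7608.5 and 6974.5. A class drawn from a score is a stretch of a range: 912, 352, 584 and 629 cells lay within 20% of the chondrocyte limit, 1877, 1458, 1492 and 1378 within 20% of the fibroblast limit, and 314, 192, 259 and 208 held exactly the 3 markers needed for the interzone class. The 9 cartilage markers summed to 9791, 18146, 15873 and 14903 CPM in chondrocyte-like cells, with Col2a1 the most abundant, and to 2626, 5664, 6378 and 7465 CPM in interzone-like cells. The 7 interzone markers summed to 3135, 2928, 2360 and 1456 CPM in the latter, with Sfrp2 the most abundant, so the make-up of that class moved with age and label, and its part in the interzone-like ratios below was not tested. Among the 10 genes most raised in each class, each class held at least as many of its own markers as of any other class, although the chondrocyte-like class of the library labelled Glut3f/f held 0 of its own and 0 of any other.

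Levels are CPM of UMIs summed over the cells of a class, and brackets give exact 95% intervals, Poisson for levels and conditional for ratios. These intervals cover counting error only, since there was 1 library per group, no check by replicates and no p-value. UMIs from 3′ ends count molecules and do not depend on transcript length. A gene was tested when both groups together held at least 50 of its UMIs, and it is said to rise or fall when its ratio passed 1.5-fold. The age comparison asked what differs between the E13.5 and E14.5 controls, and the genotype comparisons asked what differs when the transporter genes carry the floxed alleles with cre; both genotype comparisons against control share the E14.5 control library.

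Few members passed 1.5-fold in the 3 largest classes or in all skeletal cells together. With age, 1 of 9 members tested in chondrocyte-like cells, 0 of 8 in interzone-like cells, 1 of 8 in fibroblast-like cells and 1 of 9 in all skeletal cells did so, where the shares of all tested genes were 20.6%, 17.6%, 17.0% and 23.4%. For the library labelled Glut3f/+ against control the counts were 2 of 9, 1 of 8, 0 of 9 and 0 of 9 in the same order of classes, beside 7.55%, 7.69%, 4.65% and 6.83% of all genes. For the library labelled Glut3f/f against control they were 1 of 9, 0 of 8, 1 of 9 and 1 of 9, beside 14.9%, 14.47%, 6.56% and 15.3%. Between the mutant-labelled libraries they were 0 of 9, 0 of 8, 1 of 9 and 0 of 9, beside 7.37%, 8.15%, 6.54% and 10.0%. The members that passed were Epas1 with age in chondrocyte-like and in all skeletal cells, Egln1 in chondrocyte-like cells of both mutant-labelled libraries and in all skeletal cells of the library labelled Glut3f/f, and Egln3 in the other instances. The median log2 ratio over the members tested in chondrocyte-like cells was -0.13 with age, -0.07 and -0.18 for the libraries labelled Glut3f/+ and Glut3f/f against control, and -0.09 between these, where the medians of all genes were -0.12, -0.10, -0.16 and -0.06. Because these medians lie below 0, scaling by trimmed means (TMM) moved ratios up, by 0.15, 0.10, 0.14 and 0.04 in chondrocyte-like cells and by 0.15, 0.07, 0.18 and 0.11 in all skeletal cells. Near-zero log2 ratios are therefore given as values without a direction.

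Hif1a (ENSMUSG00000021109; GRCm38, chr12:73901375-73947530, plus strand) encodes the oxygen-labile subunit of HIF-1. In chondrocyte-like cells its level was 178 CPM [170, 185] in the E13.5 control, 235 [230, 240] in the E14.5 control, 199 [195, 203] in the library labelled Glut3f/+ and 160.2 [157, 164] in the library labelled Glut3f/f. In interzone-like cells the levels were 160.4, 184, 170.4 and 151 CPM. Chondrocyte-like cells held the highest level and interzone-like cells the next in each of the 4 libraries, among classes of at least 50 cells. The log2 ratio of chondrocyte-like over interzone-like cells was 0.15 [0.06, 0.23], 0.35 [0.28, 0.43] and 0.22 [0.15, 0.30] in the first 3 libraries, while in the library labelled Glut3f/f it was 0.09 with an interval of [-0.02, 0.19] that includes 0. Fibroblast-like cells held 141, 138, 140 and 121 CPM, prehypertrophic chondrocytes 127, 131, 143 and 123, and muscle cells 90.0, 95.1, 92.6 and 100.2. Thus the gap between early cartilage and muscle was under 3-fold, and the Hif1a transcript was spread over all skeletal classes.

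Between ages the Hif1a log2 ratio was 0.40 [0.34, 0.47] in chondrocyte-like cells, 0.20 [0.11, 0.28] in interzone-like cells and -0.04 [-0.13, 0.05] in fibroblast-like cells. Between the chondrocyte-like sums cartilage markers went from 9791 to 18146 CPM and fibroblast markers from 888 to 1594. Interzone markers there went from 481 to 262 CPM and osteogenic markers from 103 to 22.7. Against the E14.5 control, the library labelled Glut3f/+ stood at -0.24 [-0.28, -0.20] in chondrocyte-like cells. The library labelled Glut3f/f stood at -0.55 [-0.59, -0.51] there, at -0.28 [-0.41, -0.16] in interzone-like cells, whose own markers went from 2928 to 1456 CPM and cartilage markers from 5664 to 7465 CPM, and at -0.19 [-0.30, -0.08] in fibroblast-like cells. None of these passed 1.5-fold, but the chondrocyte-like level was lowest in the library labelled Glut3f/f and highest in the E14.5 control, and with TMM the ratios of the mutant-labelled libraries were -0.14 and -0.41. Compared directly, the library labelled Glut3f/f stood at -0.31 [-0.36, -0.27] against the library labelled Glut3f/+ in chondrocyte-like cells. In tendon cells, of which there were 163, 176 and 98 in the E14.5 libraries, Hif1a was 177, 158 and 101 CPM, and it fell by 0.82 on the log2 scale between the control and the library labelled Glut3f/f. Median marker shares of the tendon class went from 0.381% to 0.482% for fibroblast and from 0.109% to 0.0566% for interzone markers in that comparison. In osteogenic cells it fell by 0.62 with age, from 141 to 91.3 CPM, while the class went from 293 to 100 cells, its median share of fibroblast markers from 0.185% to 0.816% and that of osteogenic markers from 0.0745% to 0.0659%. The part of these shifts in the ratios was not tested.

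Epas1 (ENSMUSG00000024140; chr17:86753700-86833410, plus strand) encodes HIF-2α, best known from endothelial cells. Endothelial cells held 136 CPM [108, 169], 131 [89.8, 185], 246 [209, 289] and 168 [139, 202] of Epas1, in 59, 30, 63 and 75 cells. All skeletal cells together held 0.574, 2.07, 1.54 and 1.49 CPM, so that the endothelial level was 236-fold, 63.3-fold, 160.1-fold and 113-fold higher. This was the widest gap for any member among the pairs of classes compared. An Epas1 UMI was found in 64.4%, 56.7%, 66.7% and 62.7% of endothelial cells, whose median depths were 8647, 6262, 7892 and 6638 UMIs. Erythroid cells, taken as a class that should lack it, gave 0.690%, 1.09%, 0% and 0% at median depths of 7604, 8856, 8030.0 and 7893.5 UMIs, where the counts of 0 in 67 and 42 cells allow shares of up to 4.48% and 7.14%. When every cell was thinned to 2000 UMIs, which left out 5, 5, 2 and 6 endothelial cells, the shares were 24.5%, 28.0%, 34.1% and 27.5% against 0.212%, 0.137%, 0% and 0% in erythroid cells. In chondrocyte-like cells a UMI was found in 0.309%, 1.62%, 1.15% and 1.14% of cells, or in 0.0640%, 0.409%, 0.310% and 0.276% after thinning. The erythroid background rests on 0 or 1 cell with a UMI per library and does not divide these shares from free RNA. Muscle cells, a larger class at median depths of 10220, 13820, 13187.5 and 10439.5 UMIs, gave 0%, 0.433%, 0.279% and 0%, or 0%, 0.0523%, 0.0274% and 0% after thinning, where the counts of 0 in 772 and 88 cells allow shares of up to 0.389% and 3.41%. The log2 ratio of chondrocyte-like over muscle cells was 2.66 [0.14, 7.98] in the E14.5 control and 2.72 [0.18, 8.05] in the library labelled Glut3f/+, each on 1 muscle UMI. In the other libraries muscle had 0 UMIs. With the muscle count set at 3, the log2 ratio was 0.30 in the E13.5 control and -1.18 in the library labelled Glut3f/f. These values take the chondrocyte-like counts, 5 and 75 UMIs, as exact and are not bounds. The muscle count does not place cartilage above muscle in either library. The part of free RNA in the low cartilage counts was not tested.

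Between the control ages Epas1 rose in chondrocyte-like cells by 2.17 on the log2 scale [0.89, 3.83], from 5 to 81 UMIs, and in all skeletal cells by 1.85 [1.31, 2.44]. Without classes, over all kept cells, which include the endothelial ones, the latter was 0.71. The endothelial log2 ratio with age was -0.05 [-0.69, 0.56], and the 8 endothelial markers summed to 27.9, 19.1, 16.8 and 19.3 CPM in chondrocyte-like cells. Epas1 also rose in endothelial cells of the library labelled Glut3f/+ against control, with a log2 ratio of 0.91 [0.35, 1.51], while that of the library labelled Glut3f/f was 0.36 [-0.21, 0.97]. Between the endothelial sums of the control and the library labelled Glut3f/+, erythroid markers went from 4191 to 45.7 CPM and cartilage markers from 1489 to 1085. Fibroblast markers went from 242 to 434 CPM, muscle markers from 4.10 to 121 and endothelial markers from 5667 to 5982. Their part in the rise was not tested. The difference between these endothelial ratios was not tested beyond their direct comparison, -0.55 for the library labelled Glut3f/f over the library labelled Glut3f/+, and the control held only 30 endothelial cells. In chondrocyte-like cells the ratios against control were -0.55 [-1.06, -0.04] and -0.44, both short of 1.5-fold. Hif3a (ENSMUSG00000004328; chr7:17031507-17062427, minus strand) encodes the least studied alpha subunit, some of whose splice forms act as inhibitors. It was low throughout, at 5.35, 3.77, 4.14 and 3.22 CPM in chondrocyte-like cells, 6.92, 5.94, 5.68 and 5.18 in interzone-like cells and 3.85, 4.91, 6.08 and 5.93 in fibroblast-like cells. None of its ratios in these classes passed 1.5-fold, the lowest with age being -0.51 [-0.94, -0.06] in chondrocyte-like cells.

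Arnt (ENSMUSG00000015522; chr3:95434388-95497240, plus strand) encodes the stable partner shared by the alpha subunits. It stood at 23.6, 24.9, 23.8 and 19.1 CPM in chondrocyte-like cells and at 30.7, 29.7, 29.7 and 24.6 CPM in fibroblast-like cells, which held its highest level among classes of at least 50 cells in all 4 libraries. The level of Arnt was thus ordered differently from that of Hif1a, being lower in cartilage than in connective tissue. Arnt in the library labelled Glut3f/f had a log2 ratio to control of -0.38 [-0.51, -0.26] in chondrocyte-like and -0.27 [-0.52, -0.03] in fibroblast-like cells, and with TMM the former was -0.24. The ratios of the library labelled Glut3f/+ to control were -0.07, -0.15 and -0.00 in chondrocyte-, interzone- and fibroblast-like cells. No Arnt ratio in these classes passed 1.5-fold.

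**Figure D1:**
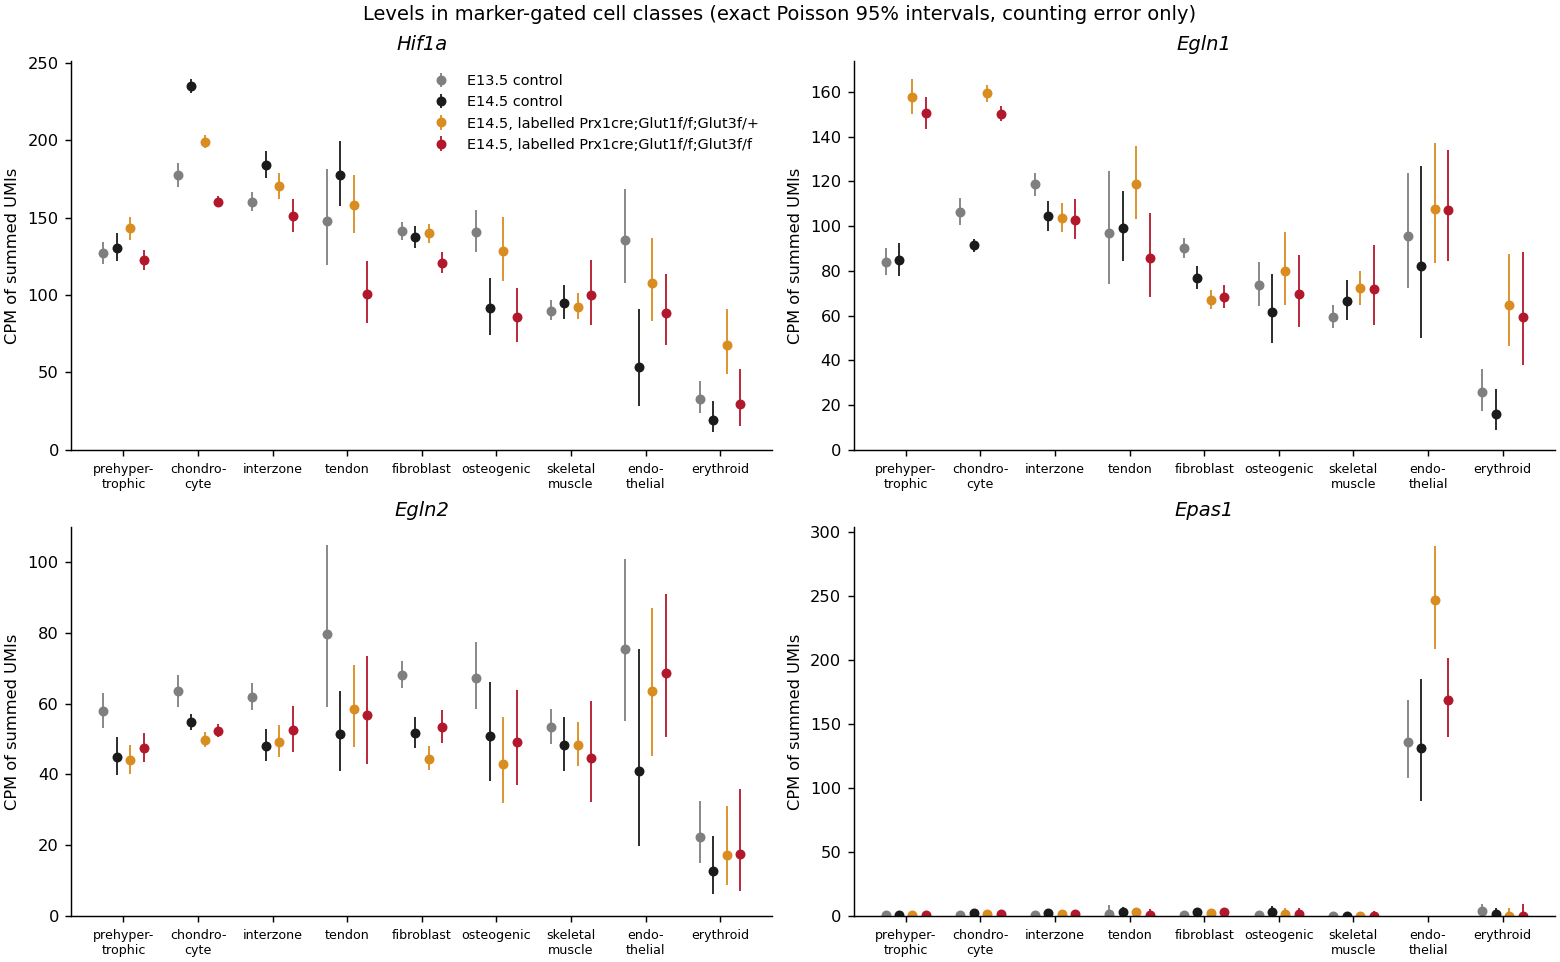
Levels of Hif1a, Egln1, Egln2 and Epas1 in CPM of summed UMIs (y axis) by cell class (x axis), with 1 point per library and exact Poisson 95% intervals as bars. Hif1a reached 235 CPM in chondrocyte-like cells of the E14.5 control, Egln1 was 159 and 150.2 CPM in those of the libraries labelled Glut3f/+ and Glut3f/f against 91.5 in the control, and Epas1 was high in endothelial cells, at 131 to 246 CPM.

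Egln1 (ENSMUSG00000031987; chr8:124908587-124949324, minus strand) encodes PHD2, the main oxygen sensor of the family. In chondrocyte-like cells its level was 106 CPM [100, 112] in the E13.5 control, 91.5 [88.6, 94.4] in the E14.5 control, 159 [156, 163] in the library labelled Glut3f/+ and 150.2 [147, 154] in the library labelled Glut3f/f. Prehypertrophic chondrocytes held 83.9, 84.7, 158 and 150.3 CPM. In both cartilage classes the mutant-labelled libraries lay above both controls. Interzone-like cells held 119, 104, 104 and 103 CPM, fibroblast-like cells 90.2, 76.9, 67.1 and 68.5, and muscle cells 59.5, 66.6, 72.1 and 71.9. In interzone- and fibroblast-like cells the mutant-labelled libraries did not lie above the controls, and in muscle cells they did, by less than in cartilage.

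Against the E14.5 control, Egln1 rose in chondrocyte-like cells by 0.80 on the log2 scale [0.74, 0.86] in the library labelled Glut3f/+ and by 0.72 [0.66, 0.77] in the library labelled Glut3f/f. In prehypertrophic chondrocytes it rose by 0.90 [0.75, 1.04] and 0.83 [0.68, 0.97]. The prehypertrophic class went from 335 cells in the control to 550 and 694. Ibsp and Col10a1 were among its 10 most raised genes only in the mutant-labelled libraries. In the chondrocyte-like class Col2a1 went from 6243 CPM in the control to 5822 and 5026. The part of these shifts in the ratios of these classes, here and elsewhere, was not tested. Relative to the shift of all genes, TMM gave 0.90 and 0.86 for chondrocyte-like cells, and over 5 alternatives each the values ran from 0.72 to 0.90 and from 0.68 to 0.86. The interzone-like ratios were -0.01 [-0.14, 0.12] and -0.02 [-0.18, 0.13], and over 5 alternatives each they ran from -0.23, with the mean over cells, to 0.11, with TMM, and from -0.16 to 0.10, with 3 of 5 below 0 in each. The fibroblast-like ratios were -0.20 [-0.33, -0.06] and -0.17 [-0.32, -0.02], and ran from -0.29 to -0.12 and from -0.28 to -0.04. In muscle cells, outside the domain of Prx1cre, they were 0.12 [-0.13, 0.37] and 0.11. Over all skeletal cells the ratios were 0.56 [0.52, 0.61] and 0.59 [0.54, 0.63], on either side of the 1.5-fold limit, and the latter passed it in 4 of 7 alternatives. Between the mutant-labelled libraries the chondrocyte-like ratio was -0.09 [-0.13, -0.04], and with age it was -0.22 [-0.31, -0.12], or -0.07 with TMM.

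The order of the classes differed between the libraries. In both controls interzone-like cells held more Egln1 than chondrocyte-like cells, with log2 ratios of chondrocyte-like over interzone-like of -0.16 [-0.26, -0.06] at E13.5 and -0.19 [-0.29, -0.09] at E14.5. It was 0.62 [0.52, 0.72] in the library labelled Glut3f/+ and 0.55 [0.42, 0.68] in the library labelled Glut3f/f, with cartilage above interzone. Chondrocyte-like over fibroblast-like cells gave 0.24, 0.25, 1.25 and 1.13, so the contrast between cartilage and connective tissue was widest in the library labelled Glut3f/+. These ratios are taken within a library and do not depend on scaling between libraries.

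Single cells with many Egln1 UMIs were more frequent in cartilage of the mutant-labelled libraries. At least 5 Egln1 UMIs were found in 0.556%, 0.987%, 7.82% and 5.92% of chondrocyte-like cells, and in 2.16%, 6.27%, 23.6% and 19.2% of prehypertrophic chondrocytes. In fibroblast-like cells the shares were 0.404%, 0.0607%, 0.159% and 0.164%, and in erythroid cells 0.690%, 0%, 4.48% and 4.76%, where the count of 0 in 92 cells allows a share of up to 3.26%. After thinning to 2000 UMIs, which left out 63, 140, 217 and 281 chondrocyte-like cells, at least 2 UMIs were found in 2.33%, 1.60%, 5.11% and 5.13% of those remaining. Any Egln1 UMI was found in 47.1%, 49.0%, 53.0% and 50.5% of chondrocyte-like cells, or 18.6%, 16.0%, 22.6% and 22.1% after thinning, and in 9.66%, 7.61%, 22.4% and 16.7% of erythroid cells, or 2.56%, 1.91%, 7.05% and 6.57% after thinning. Median depths were 10572, 17467, 17623.5 and 15092.5 UMIs in prehypertrophic and 5570.5, 6045, 5483 and 4801 in fibroblast-like cells, and those of chondrocyte-like and erythroid cells are given above. After the same thinning, which left out 2, 0, 0 and 5 prehypertrophic chondrocytes, at least 2 Egln1 UMIs were found in 1.23%, 1.87%, 5.84% and 5.06% of those remaining.

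Erythroid cells of the mutant-labelled libraries also held more Egln1, at 25.6, 16.1, 64.6 and 59.5 CPM from 32, 14, 41 and 24 UMIs. The 9 cartilage markers summed to 1045, 2028, 5231 and 4136 CPM in the same erythroid cells, with Col2a1 the most abundant at 377, 722, 2280.1 and 1565, and 0 of the 9 markers were at 0 in any library. The part of free cartilage RNA in the erythroid values was not tested. Erythroid markers in chondrocyte-like cells summed to 96.6, 72.5, 43.7 and 25.3 CPM. The E13.5 control held cells of both sexes, which allowed a comparison by sex within 1 library. Over its skeletal cells, Egln1 was 99.7 CPM in the 5082 cells with Xist and no Y-linked UMI and 103 in the 1275 with a Y-linked UMI and no Xist, which leaves out 276 cells with both and 1037 with neither, a log2 ratio of -0.04 [-0.14, 0.06]. In its chondrocyte-like cells the levels were 102 and 126 CPM, a log2 ratio of -0.30 [-0.50, -0.09], in 1083 and 288 cells, with 41 and 208 left out. The log2 ratio was -0.03 [-0.23, 0.18] in interzone-like and 0.06 [-0.13, 0.25] in fibroblast-like cells. These cells come from 1 library of an unstated number of embryos. At E14.5 the part of sex in the Egln1 ratios was not tested.

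Egln2 (ENSMUSG00000058709; chr7:27158658-27166802, minus strand) encodes PHD1, which is not known as a HIF target. It was even across the 3 largest classes, at 63.4, 54.9, 49.8 and 52.4 CPM in chondrocyte-like cells, 62.0, 48.1, 49.3 and 52.6 in interzone-like cells and 68.1, 51.7, 44.4 and 53.4 in fibroblast-like cells. Its chondrocyte-like log2 ratios to control were -0.14 and -0.07 in the libraries labelled Glut3f/+ and Glut3f/f, and -0.04 and 0.08 with TMM, so that the sign of the latter rests on the scaling. With age the ratio was -0.21 [-0.33, -0.09] in chondrocyte-like, -0.37 [-0.53, -0.21] in interzone-like and -0.40 [-0.55, -0.25] in fibroblast-like cells, all short of 1.5-fold. In the same chondrocyte-like cells Egln1 passed 1.5-fold in both mutant-labelled libraries and Egln2 in neither, and the difference between these genes was not tested.

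Egln3 (ENSMUSG00000035105; chr12:54178981-54203860, minus strand) encodes PHD3, whose gene responds strongly to HIF in many cell types. Its counts were low, with 6.04, 5.52, 9.20 and 6.57 CPM in chondrocyte-like cells, from 70, 230, 387 and 343 UMIs. Interzone-like cells held 4.03, 3.71, 6.39 and 4.78 CPM, fibroblast-like cells 2.70, 4.82, 4.48 and 2.86, and prehypertrophic chondrocytes 1.51, 1.95, 4.39 and 5.54. The library labelled Glut3f/+ held the highest level in chondrocyte- and interzone-like cells and the library labelled Glut3f/f the highest in prehypertrophic cells. Against control, Egln3 rose in the library labelled Glut3f/+ by 0.74 on the log2 scale [0.50, 0.98] in chondrocyte-like cells, by 0.78 [0.16, 1.42] in interzone-like cells and by 1.17 [0.22, 2.23] in prehypertrophic chondrocytes. With the control first, the interzone-like ratio rests on 35 and 63 UMIs and the prehypertrophic ratio on 12 and 44. Prehypertrophic chondrocytes of the library labelled Glut3f/f held 63 UMIs. The interzone-like rise passed 1.5-fold in 2 of 5 alternatives. The shift in the prehypertrophic class is given above for Egln1, and its part in the Egln3 ratios of that class was not tested. For the library labelled Glut3f/f it rose in prehypertrophic chondrocytes, with a log2 interval of [0.60, 2.53], stood at 0.25 [0.01, 0.50] in chondrocyte-like cells, and fell by 0.75 in fibroblast-like cells, with a log2 interval of [-1.47, -0.07], on 53 and 28 UMIs. Between the same fibroblast-like sums cartilage markers went from 914 to 1287 CPM, interzone markers from 1234 to 887, osteogenic markers from 66.5 to 101 and fibroblast markers from 5305 to 5266, and their part in the fall was not tested. With age it rose in fibroblast-like cells, by 0.84 [0.24, 1.43], which passed 1.5-fold in 4 of 5 alternatives, while cartilage markers there went from 521 to 914 CPM and interzone markers from 774 to 1234. Between the mutant-labelled libraries it fell by 0.65 in fibroblast-like cells, where the interval of [-1.34, 0.01] includes 0.

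**Figure D2:**
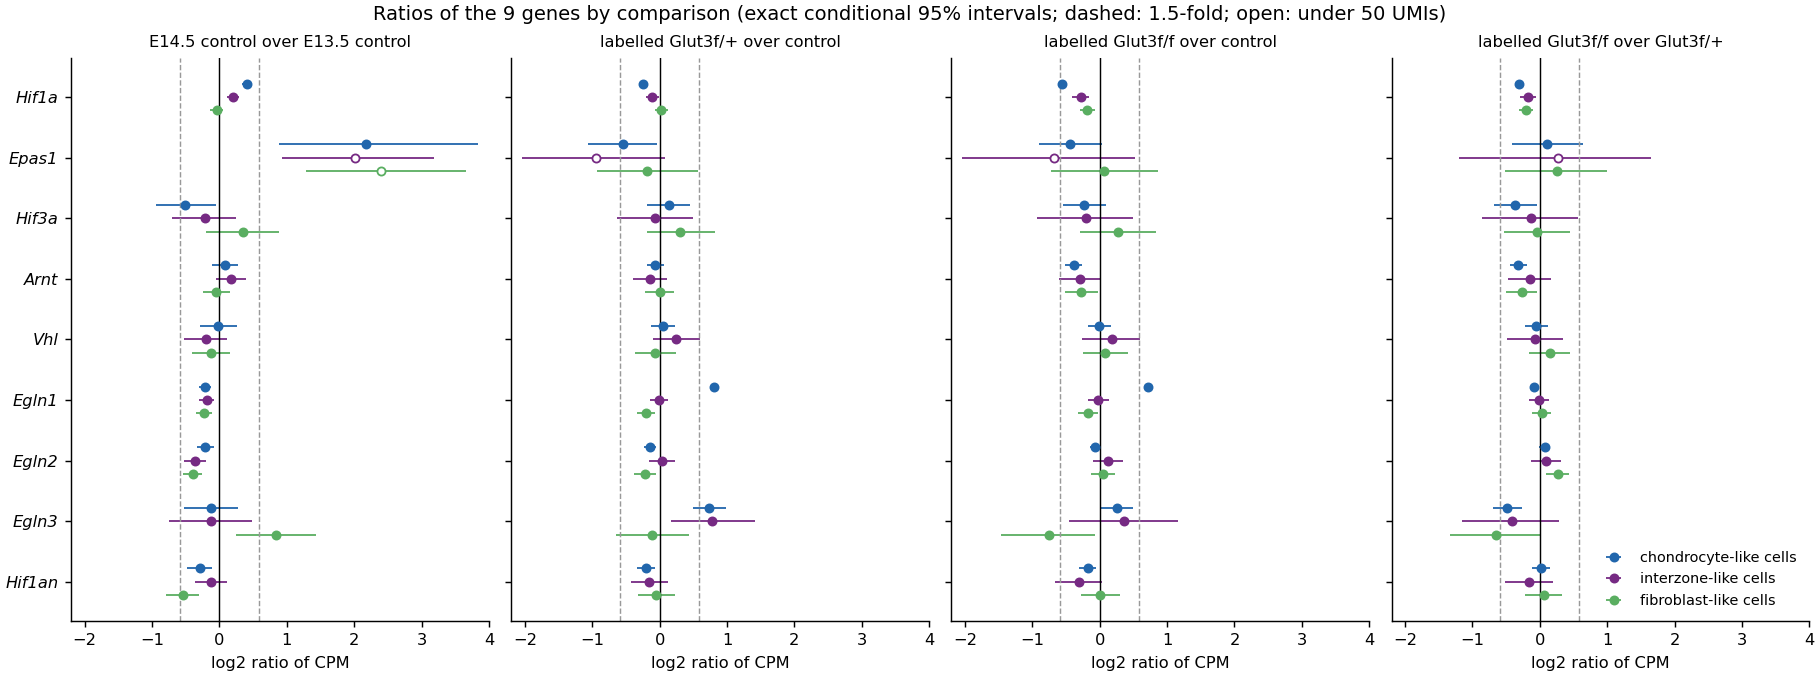
Log2 ratios of CPM (x axis) for the 9 genes (y axis) in chondrocyte-, interzone- and fibroblast-like cells, in 1 panel for age, 1 for each mutant-labelled library against the E14.5 control and 1 between the mutant-labelled libraries, with exact conditional 95% intervals as bars, dashed lines at 1.5-fold and open symbols for genes under 50 UMIs. Egln1 in chondrocyte-like cells lies at 0.80 and 0.72 in the panels against control, while its interzone-like values are -0.01 and -0.02.

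Vhl (ENSMUSG00000033933; chr6:113623959-113631633, plus strand) encodes the subunit that binds hydroxylated alpha subunits for destruction. It varied little between libraries in the 3 largest classes, at 12.1, 11.9, 12.3 and 11.9 CPM in chondrocyte-like cells, 15.0, 13.1, 15.5 and 14.7 in interzone-like cells and 16.0, 14.6, 14.03 and 15.5 in fibroblast-like cells, and was lowest of the 3 in chondrocyte-like cells of each library. Its log2 ratios in chondrocyte-like cells were -0.02 with age, 0.05 and -0.01 for the mutant-labelled libraries against control and -0.05 between these, and none passed 1.5-fold in the 3 largest classes. Hif1an (ENSMUSG00000036450; chr19:44562850-44576274, plus strand) encodes FIH, the asparaginyl hydroxylase. It stood at 28.9, 23.6, 20.6 and 20.8 CPM in chondrocyte-like cells, 26.4, 24.2, 21.8 and 19.5 in interzone-like cells and 27.1, 18.6, 18.0 and 18.7 in fibroblast-like cells. The E13.5 control was highest in each of these classes, with log2 ratios with age of -0.29 [-0.47, -0.11], -0.13 and -0.54 [-0.79, -0.30], short of 1.5-fold. Its ratios to control in chondrocyte-like cells were -0.19 and -0.18, or -0.10 and -0.04 with TMM.

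The genes that HIF acts on were followed with a list of 40 known targets, without the transporters Slc2a1 and Slc2a3 and without any member. In chondrocyte-like cells of the library labelled Glut3f/+ against control, 11 of 40 targets rose and 0 fell, with a median log2 ratio of 0.31 where the median of all genes was -0.10 and 3.04% of all genes rose and 4.51% fell. For the library labelled Glut3f/f, 5 rose and 1 fell, with medians of 0.20 and -0.16, beside 4.22% and 10.6% of all genes. Between the mutant-labelled libraries 0 rose and 6 fell, beside 2.55% and 4.82% of all genes, and with age 9 of 39 rose and 2 fell, beside 8.29% and 12.3%. In fibroblast-like cells, in contrast, 0 of 38 rose and 5 fell in the library labelled Glut3f/+ against control, with a median of -0.22 where that of all genes was -0.05, and 0 of 37 rose and 4 fell in the library labelled Glut3f/f, with medians of -0.10 and -0.06. Of all genes 1.90% and 2.07% rose and 2.75% and 4.495% fell there. In the same comparisons Egln1 stood at 0.80 and 0.72 in chondrocyte-like and at -0.20 and -0.17 in fibroblast-like cells. Whether the classes differ in these ratios was not tested. In fibroblast-like cells of the E14.5 control and the libraries labelled Glut3f/+ and Glut3f/f, interzone markers were 1234, 977 and 887 CPM. Cartilage markers there were 914, 732 and 1287 CPM and endothelial markers 49.4, 76.7 and 57.3. The part of these shifts in the fibroblast-like counts and ratios was not tested. In interzone-like cells 4 targets rose and 3 fell in the library labelled Glut3f/+, and 4 rose and 4 fell in the library labelled Glut3f/f, each of 40, beside 1.64% and 2.68% of all genes that rose and 6.05% and 11.8% that fell.

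Over all skeletal cells, 14 targets rose and 2 fell with age, 7 rose and 0 fell in the library labelled Glut3f/+ against control, 6 rose and 3 fell in the library labelled Glut3f/f, and 0 rose and 4 fell between these, each of 40. Of all tested genes, 8.44%, 3.22%, 3.21% and 1.98% rose and 15.0%, 3.61%, 12.1% and 8.02% fell in these comparisons. With age the make-up of the skeletal cells moved: chondrocyte-like cells went from 1620 of 7670 to 4764 of 8139. Col2a1 over these cells went from 1782 to 4725 CPM. In the libraries labelled Glut3f/+ and Glut3f/f chondrocyte-like cells were 4884 of 9493 and 6482 of 9790. The part of these shifts in the skeletal counts and levels, here and below, was not tested. With age the largest rises were Ndufa4l2, from 15.3 to 94.1 CPM, Hk2, from 42.0 to 112, Bhlhe40, from 12.5 to 30.7, Car12, from 7.26 to 16.1, and P4ha1, from 135 to 299. Eno1 fell with age by 1.12 on the log2 scale and Mxi1 by 0.63. Among members only Epas1 passed 1.5-fold in that comparison. Stc2, a secreted hormone, was 1.45, 2.02, 12.9 and 17.6 CPM and rose by 2.68 [2.43, 2.94] and 3.12 [2.88, 3.38] in the libraries labelled Glut3f/+ and Glut3f/f against control. Car9, a carbonic anhydrase that is a standard reporter of HIF, was 4.998, 6.81, 29.8 and 18.4 CPM and rose by 2.13 [1.99, 2.28] and 1.43 [1.28, 1.58]. Adm rose by 1.39 and 1.10 and Pfkp by 0.82 and 0.81. Hk2 rose by 0.73 in the library labelled Glut3f/+ and Ankrd37 by 0.77 in the library labelled Glut3f/f. In the latter against control, Bhlhe40 fell by 1.09, Lox by 0.94 and Insig2 by 0.68. Between the mutant-labelled libraries the largest falls were Lox, which fell by 0.90, Bhlhe40, which fell by 0.81, and Car9, which fell by 0.70.

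A list of 16 other genes of the machinery, among them the elongin and cullin partners of VHL, the SIAH ligases and the coactivators, was followed over the same cells. With age 0 rose and 3 fell over all skeletal cells: Ube2d1, a ubiquitin-conjugating enzyme, from 41.6 to 23.8 CPM, Cited2, which competes for the coactivators, from 81.3 to 50.2, and Siah1a, which encodes a ligase for the hydroxylases, from 51.1 to 32.2. These 3 of 16 stand beside 15.0% of all tested genes that fell and 8.44% that rose. In the library labelled Glut3f/+ against control and between the mutant-labelled libraries 0 of 16 passed 1.5-fold. Only Siah2 did in the library labelled Glut3f/f against control, at 40.8, 54.0, 55.0 and 81.8 CPM, a rise of 0.60 [0.54, 0.66] over control.

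Within each library, cells of a class were next ordered by the share of their UMIs that came from 42 targets, the list with Slc2a1 and Slc2a3, and divided into 5 groups of equal size. Gapdh was the most abundant target, with 17.9% to 27.2% of the target UMIs of a group of chondrocyte-like cells. In chondrocyte-like cells of the E13.5 control, Egln1 from the lowest to the highest of these groups was 77.0, 73.2, 99.9, 119 and 161 CPM. In those of the E14.5 control it was 55.4, 72.2, 77.4, 105 and 140.01 CPM. The library labelled Glut3f/+ had 50.8, 55.8, 85.4, 170.3 and 355 CPM. In all of these the highest group held the most Egln1, and the lowest group of the library labelled Glut3f/+ lay no higher than that of either control. The library labelled Glut3f/f had 49.3, 58.3, 89.8, 165 and 337 CPM. The fold of the highest over the lowest group was 2.09 [1.74, 2.52], 2.53 [2.26, 2.84], 6.99 [6.23, 7.86] and 6.83 [6.17, 7.58]. The step was therefore wider in both mutant-labelled libraries than in both controls. Genes outside the target list with a higher fold numbered 100 of 7696, 61 of 10413, 27 of 10349 and 18 of 10539. The highest group held 29.6%, 32.1%, 53.3% and 50.9% of the Egln1 UMIs of the class.

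Of the members tested, 1 of 6 rose and 1 of 6 fell between these outer groups in the E13.5 control, and 2 of 8 rose and 0 of 8 fell in each of the other libraries, where 19.0%, 22.1%, 28.9% and 31.6% of all genes passed 1.5-fold. The second member that rose was Egln3, from 1.55 to 8.93 CPM in the E14.5 control, from 2.24 to 18.3 in the library labelled Glut3f/+ and from 1.20 to 14.53 in the library labelled Glut3f/f. In the E13.5 control it had 2 and 30 UMIs in the outer groups and was not tested. The member that fell in the E13.5 control was Hif1an, from 35.8 to 22.1 CPM. For Hif1a the log2 ratio between the outer groups was 0.11 [-0.09, 0.31], -0.00 [-0.10, 0.09], -0.57 [-0.68, -0.46] and -0.37 [-0.48, -0.26]. Its level over the groups was 212, 229, 236, 193 and 143 CPM in the library labelled Glut3f/+, and in the E14.5 control 228, 247, 229, 242 and 228. In the mutant-labelled libraries the group with the most target UMIs thus held less Hif1a than the lowest group, and in the controls the intervals include 0. With only the targets outside glycolysis and glucose transport, a choice made after the data were seen, the Hif1a ratios were 0.53, 0.39, -0.28 and -0.04, so these values rest on the list: with these targets Hif1a was higher in the highest group of the controls, and its ratio in the library labelled Glut3f/f was near 0. Depth moved with the target share: the median UMIs of the lowest and the highest group were 6330.5 and 6419 in the E13.5 control, 6692 and 8625 in the E14.5 control, 5577 and 9468.5 in the library labelled Glut3f/+ and 5493 and 8194 in the library labelled Glut3f/f, and its part in these ratios was not tested.

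**Figure D3:**
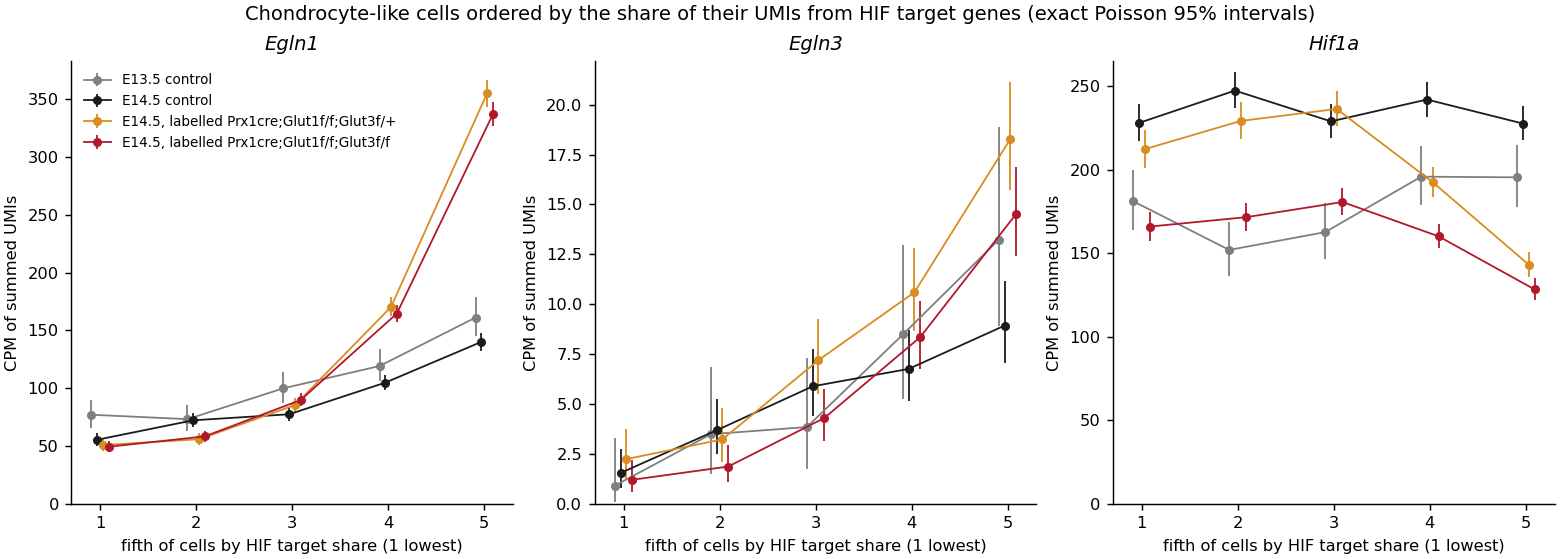
Levels of Egln1, Egln3 and Hif1a in CPM of summed UMIs (y axes) over 5 equal groups of chondrocyte-like cells ordered by their share of UMIs from 42 HIF targets (x axis, 1 lowest), with 1 line per library and exact Poisson 95% intervals as bars. Egln1 ends at 355 and 337 CPM in the libraries labelled Glut3f/+ and Glut3f/f and at 161 and 140.01 in the E13.5 and E14.5 controls, while Hif1a ends at 143 CPM in the library labelled Glut3f/+ and at 228 in the E14.5 control.

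The step along the target share was also taken in other classes. In interzone-like cells the fold of Egln1 was 2.47, 2.23, 3.56 and 2.90, and in fibroblast-like cells it was 1.25, 1.70, 1.41 and 1.68. Both were below the chondrocyte-like fold in the mutant-labelled libraries and the E14.5 control, while in the E13.5 control the interzone-like fold of 2.47 was above the chondrocyte-like fold of 2.09. Chondrocyte-like cells were also divided by a UMI of Car9. A Car9 UMI was found in 55, 310, 893 and 740 chondrocyte-like cells, which is 3.40%, 6.51%, 18.3% and 11.4% of the class. Erythroid cells, taken as background, gave 0.690%, 0%, 11.9% and 4.76%, where the count of 0 in 92 cells allows a share of up to 3.26%. After thinning to 2000 UMIs the shares were 1.11%, 1.73%, 6.21% and 3.61% in chondrocyte-like and 0.137%, 0%, 3.22% and 0.368% in erythroid cells. In larger classes the thinned shares were 0.156%, 0.326%, 0.203% and 0.183% in fibroblast-like cells. In muscle cells they were 0.382%, 0.105%, 0.786% and 0.301%. The erythroid and muscle shares were highest in the library labelled Glut3f/+, and the erythroid one there rests on 67 cells. A Car9 UMI alone therefore does not show that the cell made the transcript. Egln1 was 201 CPM in cells with and 103 in cells without it in the E13.5 control, 123 and 88.8 in the E14.5 control, 285 and 118 in the library labelled Glut3f/+ and 271 and 128 in the library labelled Glut3f/f. Cells with a Car9 UMI held more Egln1 in all 4 libraries, with log2 ratios of 0.97 [0.64, 1.28], 0.47 [0.32, 0.63], 1.28 [1.21, 1.35] and 1.09 [1.02, 1.16]. For Hif1a the same ratios were 0.28 [-0.03, 0.58], 0.34 [0.24, 0.43], -0.28 [-0.36, -0.21] and -0.27 [-0.36, -0.17], positive in the controls, with an interval that includes 0 at E13.5, and negative in the mutant-labelled libraries. Cells with a Car9 UMI were deeper, with medians of 7022, 9630.0, 10429 and 9534.5 UMIs against 6403, 7662.5, 7030.0 and 6710.5, and the parts of depth and of free RNA in these ratios were not tested.

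Likeness was measured by Pearson correlation of log2(CPM + 1) over 37 sums of a class in a library, among 8142 genes. The points share libraries and depth, so the values are a description only. The genes most like Hif1a were Zfr (0.932), Rab6a (0.930), Stag1 (0.929) and Trip11 (0.924). Those most like Epas1 were Flt1 (0.947), Gja4 (0.947), Kcne3 (0.936) and Sox18 (0.928). Those most like Egln1 were Gle1 (0.889), Jmjd6 (0.868), Rab6a (0.867) and Tars (0.867), and those most like Egln3 were Selenbp1 (0.721), Hk1 (0.681), Brox (0.652) and Gtpbp6 (0.650). Among the members, Hif1a correlated with Egln1 at 0.859, with Arnt at 0.843, with Egln3 at 0.351 and with Epas1 at 0.0379. Egln1 and Egln3, which rose together along the target share, correlated at 0.499 over the sums.

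Promoter sequences from RefSeq, on build GRCm38.p6 and running from 250 bases before to 50 after a gene's start, were available for 8 of the 9 members, in 9 windows, and there was none for Epas1. They were searched for ACGTG and GCGTG, the core letters of the HIF response element, on both strands, where the reverse complements read CACGT and CACGC. The letters ACGTG were present in 19.6%, GCGTG in 32.4% and either of them in 43.8% of 32851 promoters. The Hif1a window held 3 matches, that of Hif3a 2, that of Arnt 1, that of Egln1 2, those of Egln2 6 and 1, that of Egln3 1, and those of Vhl and Hif1an 0. The Hif1a window, chr12:73907617-73907916, lies inside the gene span given above and not at its first base. The second Egln2 window, chr7:27165679-27165978, also lies inside its gene. The windows of Egln1 and Egln3 are printed because these genes rose together along the target share, and the first window of Egln2 because that gene did not. They are chr8:124949205-124949504, chr12:54203825-54204124 and chr7:27166753-27167052, each on the minus strand and written 5′ to 3′ with the matches in capitals, where CACGTG in the Egln2 window holds a match on each strand.
Egln1: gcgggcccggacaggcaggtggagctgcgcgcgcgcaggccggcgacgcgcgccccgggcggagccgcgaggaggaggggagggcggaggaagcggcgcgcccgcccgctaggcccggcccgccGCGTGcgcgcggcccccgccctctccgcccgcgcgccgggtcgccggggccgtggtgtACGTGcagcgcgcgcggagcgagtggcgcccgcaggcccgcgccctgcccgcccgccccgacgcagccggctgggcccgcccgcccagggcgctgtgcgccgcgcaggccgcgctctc
Egln3: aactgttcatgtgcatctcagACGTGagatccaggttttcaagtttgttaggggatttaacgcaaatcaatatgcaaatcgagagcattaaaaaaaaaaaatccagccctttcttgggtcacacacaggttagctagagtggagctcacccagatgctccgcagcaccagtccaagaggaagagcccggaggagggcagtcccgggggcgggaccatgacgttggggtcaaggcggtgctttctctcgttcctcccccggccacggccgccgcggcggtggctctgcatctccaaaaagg
Egln2: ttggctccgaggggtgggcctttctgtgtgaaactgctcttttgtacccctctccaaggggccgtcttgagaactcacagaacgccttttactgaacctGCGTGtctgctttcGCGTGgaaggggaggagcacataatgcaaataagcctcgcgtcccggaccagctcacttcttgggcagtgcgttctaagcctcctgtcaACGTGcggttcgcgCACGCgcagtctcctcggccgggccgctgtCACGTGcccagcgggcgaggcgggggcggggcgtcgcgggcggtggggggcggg

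The Egln1 window was 86.0% G and C where the median promoter was 52.7%, and that of Egln3 was 54.7%. Egln2 held more matches than Egln1 and Egln3, so the number of matches did not order the 3 genes as their steps along the target share did. A match is a description of letters in a window and not evidence of binding.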

How the data were processed

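Barcodes, features and counts were read from the 4 deposited count matrices, which hold raw UMI counts per gene and cell that the authors made with Cell Ranger 6.1.2 per the file headers, aligned to mm10, and analysed with Seurat 3. Other processed values were not used here. The members and lists were chosen with earlier results of these data known. A cell was kept with 200 to 6000 genes detected and no more than 10% of its UMIs mitochondrial, which left 44320 cells, and doublets were not removed. Classes were assigned by ordered marker limits: erythroid cells by 5%, chondrocyte-like by 0.5% and fibroblast-like cells by 0.2% of UMIs from their markers, interzone-like cells by 3 markers and 1 Gdf5 UMI, prehypertrophic, osteogenic, tendon, muscle, macrophage and epidermal cells by 3 markers, and endothelial, glial and mural cells by 4. UMIs were summed by class and library, divided by the total of the sum and given per 1000000 (CPM). Total depth ran from 84188147 to 100344565 UMIs per library. Ratios carry exact conditional intervals at the 95% level, and shares at 0 allow up to 3 counts. The code was tested on simulated data.

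All 9 members are named. Of the target and machinery lists, the 5 largest rises and 3 largest falls past 1.5-fold over all skeletal cells are named in each comparison, and likeness is given for 4 genes each, among genes with a mean of at least 10 CPM over sums of at least 50 cells. The alternatives were a stricter cell filter (1000 to 6000 genes, 5% mitochondrial UMIs), the highest marker score in place of ordered limits, no classes, TMM factors of edgeR, the mean of CPM over cells, removal of doublets (cells with markers of 2 lineages and the 5% of cells with most UMIs), a 2-fold limit, and minimums of 20 and 1 UMI. Added after the data were seen were the target share outside glycolysis and glucose transport, and skeletal cells with the cells outside all classes added. Feature identifiers were matched to GENCODE M21 for coordinates (32235 of 32285, 99.8%). Python 3.11.15 with numpy 2.4.6, pandas 2.3.3, scipy 1.17.1 and matplotlib 3.10.9 and R 4.3.3 with edgeR 4.0.16 were used.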

Additional observations from a re-analysis of the deposited data

Results flagged for a closer look

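Egln1 was singled out because its difference from the E14.5 control pointed opposite ways in cartilage and in connective tissue. In the library labelled Glut3f/+ its log2 ratio was 0.80 in chondrocyte-like and -0.20 in fibroblast-like cells, a difference of 0.999. For the library labelled Glut3f/f the ratios were 0.72 and -0.17, a difference of 0.88. For Egln3 in the library labelled Glut3f/f they were 0.25 and -0.75, a difference of 1.005. None of these differences was tested, since each group had 1 library, and both comparisons share their control.

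Cells outside all classes, which the comparisons of the report do not use, were singled out because Egln1 was higher there in the mutant-labelled libraries than in the E14.5 control. Its levels were 92.6, 102, 141 and 212 CPM, and the log2 ratios to control were 0.47 [0.27, 0.67] and 1.06 [0.87, 1.24]. Their HIF targets summed to 6221, 7958, 9393 and 10461 CPM. What these cells are was not tested.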

How the results depend on the processing

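Of 551 values of log2 ratios of single members under the alternatives, 495 stayed within the counting interval of the reported value, 56 moved beyond it, 33 of these under TMM, and 0 reversed a called ratio. Of the counts of members past the fold, 102 of 136 stayed within 1.5 times the reported count, and of the target counts 34 of 40. The counts that moved are given as the count under the alternative, with the reported one in brackets, and where no construction is named the cause was not tested.

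The limit of 2-fold leaves fewer genes past it by construction: targets over all skeletal cells were 7 (16) with age, 3 (7) and 4 (9) for the libraries labelled Glut3f/+ and Glut3f/f against control and 0 (4) between these; members were 0 (2) and 0 (1) in chondrocyte-like cells of the libraries labelled Glut3f/+ and Glut3f/f, 0 (1) in interzone-like cells of the former, 0 (1) over all skeletal cells of the latter, and 0 (1) in fibroblast-like cells with age, for the library labelled Glut3f/f against control and between the mutant-labelled libraries. A minimum of 20 or of 1 UMI tests more genes by construction, and each gave 1 (0) in interzone-like cells with age, 2 (1) in fibroblast-like cells with age, 2 (1) in interzone-like cells of the library labelled Glut3f/+ and 1 (0) in those of the library labelled Glut3f/f. All genes past 1.5-fold over skeletal cells went from 23.4%, 6.83%, 15.3% and 10.0% to 41.5%, 28.1%, 35.2% and 31.0% with the minimum of 1 UMI, in the order age, labelled Glut3f/+ and labelled Glut3f/f against control, and between these.

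TMM gave 2 (1) members over all skeletal cells with age and 2 (0) for the library labelled Glut3f/+ against control. In the latter the stricter cell filter, the highest marker score, no classes and the addition of cells outside all classes, the last chosen after the data were seen, each gave 1 (0). The reported Egln3 ratio over these cells, 0.584, lies just under the limit and passed it in 5 of 7 alternatives, and that of Egln1 in 1 of 7. For the library labelled Glut3f/f against control the stricter filter, the mean over cells and the removal of doublets each gave 0 (1), where the reported Egln1 ratio of 0.59 lies at the limit. The highest marker score gave 0 (1) in fibroblast-like cells with age, 0 (1) in interzone-like cells of the library labelled Glut3f/+ and 2 (1) in chondrocyte-like cells of the library labelled Glut3f/f. The removal of doublets gave 2 (1), 0 (1) and 2 (1) in the same instances. The mean over cells gave 3 (1) in fibroblast-like cells with age, 2 (1) and 0 (1) in those of the library labelled Glut3f/f against control and against the library labelled Glut3f/+, 0 (1) in interzone-like cells of the library labelled Glut3f/+, and 4 (7) targets over its skeletal cells. No classes gave 2 (4) targets between the mutant-labelled libraries.

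With targets outside glycolysis and glucose transport, chosen after the data were seen, the log2 ratio of the outer groups was 1.38 (1.06) for Egln1 in the E13.5 control, and for Hif1a 0.53 (0.11), 0.39 (-0.00), -0.281 (-0.57) and -0.037 (-0.37). The cause was not tested. Without classes Epas1 over all skeletal cells became 0.71 (1.85) with age, 0.35 (-0.43) and 0.19 (-0.47) for the libraries labelled Glut3f/+ and Glut3f/f against control, where all kept cells include the endothelial ones.

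No paired analysis was possible because each group had 1 library and no cells or embryos were matched between groups. For the same reason leaving out a library was not possible in any comparison. Depth limited Epas1 and Egln3, whose counts were often under 50 in a class. Epas1 had 5 UMIs in chondrocyte-like cells of the E13.5 control, and Egln3 had 2, 0, 3 and 7 in endothelial cells. Small classes, such as the 30 endothelial cells of the E14.5 control, widen the intervals. The intervals hold no variation between embryos, and sex, genotype and library cannot be told apart at E14.5. Age, sex make-up and library cannot be told apart between the controls. Transcript levels say nothing of the protein or its hydroxylation, and the state of the floxed genes was not checked.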

Other observations

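In macrophages, of which there were 34, 61, 84 and 66, Hif1a was 85.6, 94.7, 56.3 and 49.4 CPM and Egln1 was 72.7, 75.8, 51.2 and 51.8 CPM. In mural cells, of which there were 12, 18, 29 and 13, Epas1 was 54.6, 73.6, 32.2 and 70.8 CPM. In muscle cells Slc2a1 was 28.4, 23.9, 56.9 and 68.6 CPM.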
